A study of Mus musculus with 10 samples.

Results

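The glycolytic enzyme genes Hk2, Pfkp, Aldoa, Aldoc, Pgk1, Eno1, Eno2, Pkm, Ldha and Ldhb were followed in mouse neocortex from E12.5 to birth. They are 10 of the 22373 genes in the footprint table, taken by symbol, and all 10 passed the filter on low counts. Ribosome profiling (Ribo-seq) counts the fragments of mRNA that ribosomes protect from nuclease digestion, called footprints. A footprint count depends on the amount of an mRNA and on the ribosomes bound to it, and these were not separated here. The neocortex came from wild-type CD-1 mice on embryonic days E12.5 and E14, on E15.5 and E17, all counted from mating, and on the day of birth, P0, with no treatment and no altered allele at any stage. Each of the 5 stages had 2 libraries, and each library was a pool of brains of both sexes.

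Glycolysis converts glucose to pyruvate in the cytosol with a net gain of ATP, and lactate dehydrogenase converts pyruvate to lactate and back. Most steps have several isoforms encoded by separate genes, and tissues differ in which isoform they use. Proliferating cells commonly carry high glycolytic activity, while neurons are known for gamma-enolase, the product of Eno2, and for oxidative metabolism. In adult brain Aldoc is known as an astrocyte gene and as a marker of stripes of cerebellar Purkinje cells.

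Library totals ran from 7544404 counts (P0 replicate 1) to 36129988 (E14 replicate 2). Levels are given as CPM, counts relative to a library size scaled by TMM, a factor that sets the bulk of genes equal between libraries. They compare stages within a gene and not genes with each other, because counts also depend on coding length. The P0 libraries were the least alike, with an SD of their log2 ratio over 4559 well-covered genes of 0.53, against 0.13 to 0.22 within the other stages. Changes are log2 fold changes from limma-voom with Benjamini-Hochberg adjustment over the 13484 genes kept, and a gene was called where the adjusted p was under 0.05 and the log2 fold change at least 0.32 in size. Nothing ties the libraries of a stage to separate litters beyond their being replicate pools, so p-values rest on the spread between pools. The main fit takes this spread, gene by gene, over all stages together and not from the stages compared alone. The wider spread at P0 thus enters the p-values of every comparison. With only the stages compared in the fit, calls over all genes for P0 vs E17 went from 2767 to 0. Those for E17 vs E15.5 went from 1219 to 3267, and those for E14 vs E12.5 from 86 to 11. Scaling by total counts alone moved the median gene by 0.29 at E15.5 vs E14 and by 0.51 at P0 vs E12.5, and the changes below use TMM, under which the median gene sat at -0.01 in both.

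The set did not move in a single direction between E12.5 and P0. Footprints of Hk2, Aldoc, Pgk1, Eno1, Pkm and Ldha fell, those of Pfkp and Eno2 rose, and Aldoa and Ldhb did not pass the test. By the moderated F test over all stages in limma-voom, 10 of 10 genes changed, beside 63.8% of all genes tested. For P0 vs E12.5, 8 of 10 were called, beside 62.1% of all genes. In the set 2 were higher (30.1% of all genes were higher) and 6 lower (32% were lower). With 10 genes these shares are coarse, and their difference from those of all genes was not tested. The median log2 fold change of the set was -0.71, beside -0.01 over all genes tested. Scaled by total counts alone, 4 were called higher and 5 lower, beside 47.8% and 18.6% of all genes. Under that scaling Aldoa and Ldhb were called higher and Ldha was not called.

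Most calls came in a single step. No gene of the set was called for E14 vs E12.5 by limma-voom, where 3 had an unadjusted p under 0.05, DESeq2 called 2 and edgeR 0, and 0.638% of all genes were called. For E15.5 vs E14, 9 of 10 were called, beside 36.1% of all genes, with 7 lower (19.6% of all genes were lower) and 2 higher (16.5% were higher). Scaled by total counts alone, 6 were lower and 3 higher, beside 12.3% and 32.7% of all genes. The median of the 10 genes in that step was -0.64, beside -0.01 over all genes. For E17 vs E15.5 only Hk2 was called, beside 9.04% of all genes. For P0 vs E17, 4 were called higher and 0 lower, beside 20.5% of all genes called, 9.46% higher and 11.1% lower. With only these stages in the fit, 0 of the 4 kept their call, and limma-voom called 0 genes of the whole table, with 2962 at an unadjusted p under 0.05.

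**Figure D1:**
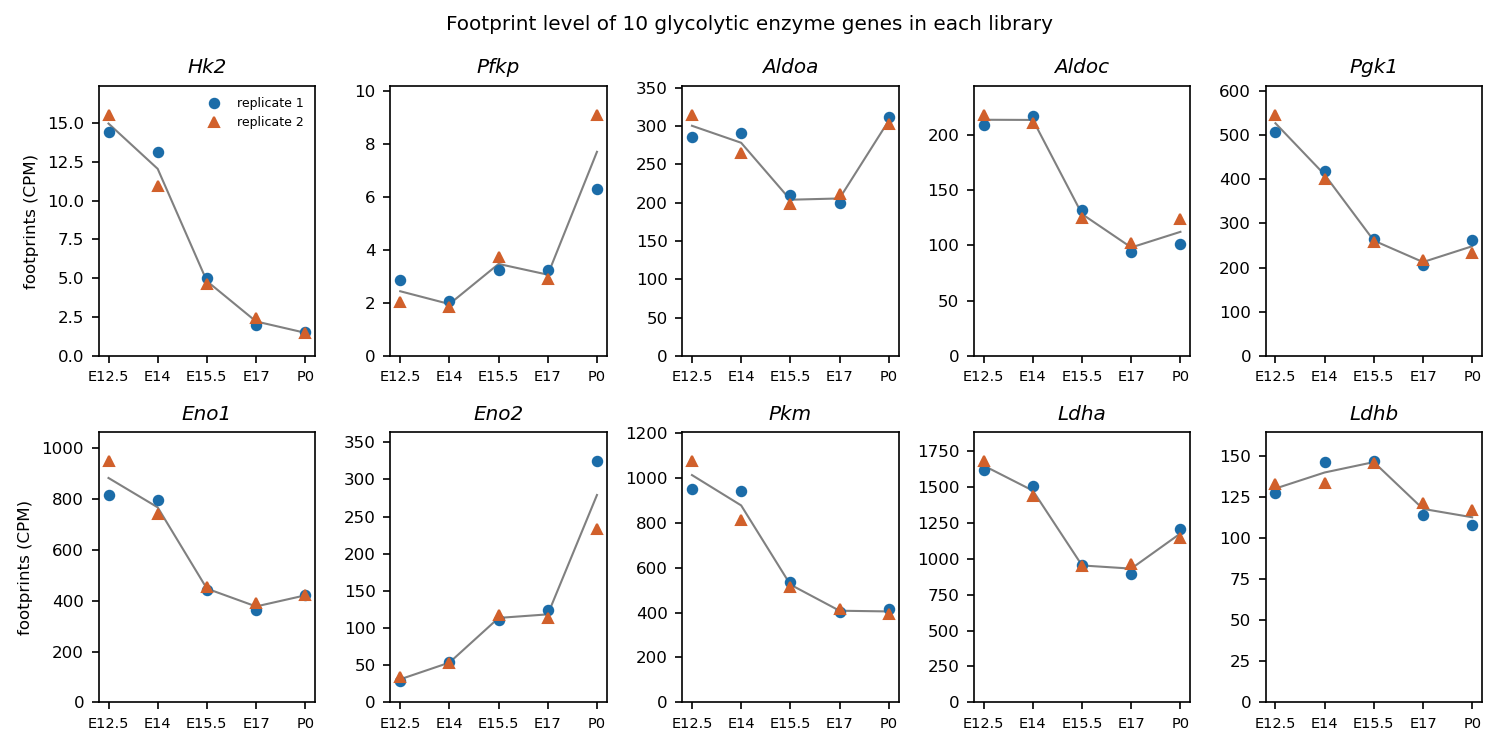
Each panel plots the footprint level of a gene in CPM (vertical axis, from 0) at the 5 stages (horizontal axis), with a circle for replicate 1, a triangle for replicate 2 and a line through the stage means. Hk2, Pgk1, Eno1 and Pkm stand highest at E12.5 and drop most between E14 and E15.5, Eno2 and Pfkp stand highest at P0, and Aldoa returns at P0 to its level at E12.5.

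The 10 genes together took 0.394% ± 0.0088 (SD, n = 2) of all counts in the E12.5 libraries, 0.364% ± 0.013 in those of E14, 0.295% ± 0.0041 in those of E15.5, 0.273% ± 0.014 in those of E17 and 0.367% ± 0.025 in those of P0. The summed level on the TMM scale was 4760 ± 280 CPM in the E12.5 libraries, 4226 ± 227 for E14, 2786 ± 30.2 for E15.5, 2474 ± 98.6 for E17 and 3069 ± 130 for P0. The share at P0 thus stood within the SD of the share at E14, while the summed CPM at P0 was below that at E14, and the TMM factor is what separates these readings.

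All 8 neuron and all 8 progenitor markers had counts at every stage. Markers of other cells moved over the step from E14 to E15.5. In E15.5 vs E14, 8 of 8 meningeal fibroblast, 8 of 8 endothelial, 7 of 7 tested choroid plexus and 6 of 9 tested red blood cell markers were called lower, 7 of 8 progenitor markers were lower with Fabp7 higher, and 8 of 8 neuron markers were higher. Summed meningeal markers ran from 65.9 to 73.8 CPM in the E14 libraries and were 2.702 and 2.98 in those of E15.5. Summed choroid plexus markers ran from 1160 to 1165 CPM in the E14 libraries and were 11.5 and 14.2 in those of E15.5. Summed endothelial markers went from between 27.7 and 35.4 CPM to between 8.28 and 9.64, and red blood cell markers from between 10042 and 11056 to between 6906 and 7422. Summed neuron markers went from between 3073 and 3176 CPM to between 7331 and 7672. Summed progenitor markers, which include Fabp7, lay between 2158 and 2237 CPM at E14 and between 2135 and 2293 at E15.5, and overlapped. Of 10 astrocyte markers 1 was higher and 3 were lower, and of 7 tested microglia markers 5 were lower. In these lists, 1 choroid plexus gene stood at 0 at E15.5, and none of the meningeal or endothelial genes did. The part of this shift in the changes of the glycolytic genes was not tested. In footprints of whole tissue, fewer cells of a type, less mRNA per cell and fewer ribosomes per mRNA cannot be told apart.

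**Figure D2:**
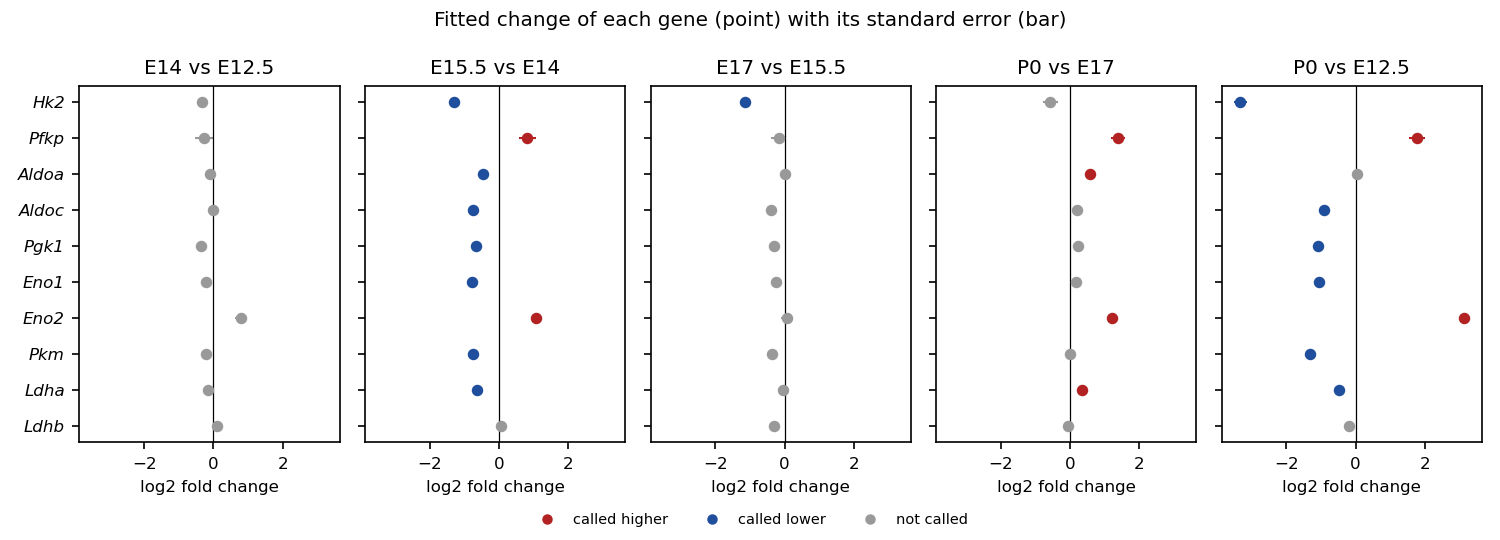
Each panel plots the fitted log2 fold change (horizontal axis) of the 10 genes (rows) in a comparison, as a point with a bar of 1 standard error, red where called higher, blue where called lower and grey where not called. In E15.5 vs E14 the points of 7 genes lie between -1.30 and -0.45, while Eno2 (1.08) and Pfkp (0.82) lie to the right.

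Promoter sequence is shown for 4 of the genes, those with the largest fall (Hk2) and rise (Eno2) and the lactate dehydrogenase pair. Of that pair, Ldha was called lower in E15.5 vs E14 and Ldhb was not called. HIF-1, the factor that drives glycolytic genes in low oxygen, is known to bind the core ACGTG or GCGTG. RefSeq promoter windows of build GRCm38.p6, the 250 bases before each transcription start, were searched for both words on both strands, and 17 windows belonged to the 10 genes, since Eno1 and Aldoa have 3 each and Ldha, Pkm and Aldoc have 2. ACGTG was found in 6 of the 17 windows, which belong to 5 of the 10 genes (Hk2, Aldoa, Pgk1, Pkm and Ldha), and in 16.6% of all 32851 windows. GCGTG was found in 8 of the 17, which belong to 5 of the 10 genes (Eno1, Ldhb, Ldha, Aldoc and Pfkp), beside 28.2% of all windows. Genes that fell and genes that rose were among the holders of GCGTG. Of the 3 Aldoa windows, 2 overlap and hold the same ACGTG site, and 2 of the 3 Eno1 windows overlap and hold the same GCGTG sites. Shares of all windows are per window and do not compare with counts of genes. With the 50 bases after the start included, 7 windows and 6 genes held ACGTG, Aldoc being the gene added, beside 19.6% of all windows. The 250-base window was chosen after the longer one had been counted. The palindrome CACGTG holds ACGTG on both strands and so counts as 2, and it was found in 1 of the 17 windows and in 6.02% of all. Capitals mark ACGTG on either strand, and not GCGTG, in the following sequences, printed 5′ to 3′ on the strand of the gene.
Ldha, chr7:46845554-46845803, plus strand: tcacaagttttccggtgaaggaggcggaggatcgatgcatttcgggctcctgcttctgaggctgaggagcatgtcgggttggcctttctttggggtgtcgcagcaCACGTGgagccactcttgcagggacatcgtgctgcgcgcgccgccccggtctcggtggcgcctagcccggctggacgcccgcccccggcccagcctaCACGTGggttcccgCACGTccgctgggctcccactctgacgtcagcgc
Ldhb, chr6:142507958-142508207, minus strand: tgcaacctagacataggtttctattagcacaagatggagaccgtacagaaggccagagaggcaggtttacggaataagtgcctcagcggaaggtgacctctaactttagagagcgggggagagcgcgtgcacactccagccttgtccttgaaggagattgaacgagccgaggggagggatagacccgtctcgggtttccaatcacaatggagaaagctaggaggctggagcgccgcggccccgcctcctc
Hk2, chr6:82774455-82774704, minus strand: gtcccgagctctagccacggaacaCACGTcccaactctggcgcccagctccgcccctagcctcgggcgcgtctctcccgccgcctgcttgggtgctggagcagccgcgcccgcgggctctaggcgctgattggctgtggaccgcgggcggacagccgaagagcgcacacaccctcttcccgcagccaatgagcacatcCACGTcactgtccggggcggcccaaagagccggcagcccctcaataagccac
Eno2, chr6:124769674-124769923, minus strand: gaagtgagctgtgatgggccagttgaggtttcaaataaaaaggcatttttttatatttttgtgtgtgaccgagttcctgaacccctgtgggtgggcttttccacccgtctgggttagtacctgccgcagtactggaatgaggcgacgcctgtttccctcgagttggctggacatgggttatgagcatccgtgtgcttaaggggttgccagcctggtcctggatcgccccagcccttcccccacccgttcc
The Ldha window printed, 1 of 2, held 5 matches to ACGTG, 4 of them from 2 palindromes, and the Hk2 window held 2. The other Ldha window held 0 ACGTG and 1 GCGTG. The Ldhb and Eno2 windows held 0, and the Ldhb window held 1 GCGTG. A match describes the letters of the window and is not evidence of binding.

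Hk2 (ENSMUSG00000000628) encodes the inducible hexokinase that traps glucose in the cell as glucose-6-phosphate. Hk2 gave 14.4 and 15.52 CPM in the libraries of E12.5, 13.2 and 10.9 in those of E14, 5.03 and 4.603 in those of E15.5, 2.001 and 2.44 in those of E17, and 1.52 and 1.46 in those of P0. Each stage stood below the one before with no overlap between libraries. Of these steps, E14 vs E12.5 (-0.33, adjusted p = 0.267) and P0 vs E17 (-0.57, adjusted p = 0.0919) were not called by limma-voom. The share of all genes with such an order was not counted. The fall was -1.30 (SE 0.14, adjusted p = 0.000341) for E15.5 vs E14, -1.13 (SE 0.17, adjusted p = 0.0112) for E17 vs E15.5 and -3.33 (SE 0.19, adjusted p = 2.62e-06) for P0 vs E12.5 by limma-voom. Counts were low late in development, with 14 and 61 at P0 and 63 and 65 at E17. Leaving out any of the 4 libraries of E15.5 or E17 ended the call of E17 vs E15.5, with adjusted p from 0.0775 to 0.134. Hk1, the constitutive hexokinase that binds mitochondria, moved the opposite way, from 28.3 ± 2.16 CPM (SD, n = 2) at E12.5 to 149 ± 3.53 at P0, a rise of 2.40 (SE 0.10, limma-voom adjusted p = 7.07e-07).

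The ratio of Hk2 to Hk1 counts within a library, which does not depend on scaling, ran between 0.483 and 0.579 in the E12.5 libraries, between 0.0619 and 0.0687 in those of E15.5 and between 0.00962 and 0.0104 in those of P0. It was 17.02-fold lower in the 6 libraries from E15.5 on than in the 4 libraries before, a log2 difference of -4.09 with no overlap (two-sided exact permutation p = 0.00952, the smallest that 210 arrangements can give, adjusted p = 0.0143 over 6 ratios). P0 was 51.8-fold lower than E12.5. The split at E15.5, used for all 6 ratios, follows the study and was chosen with earlier results of these data known. Libraries of different stages within a side are not replicates of a single condition. Any ratio that trends steadily with age can therefore reach this smallest p, and the share of other gene pairs that do was not tested.

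Pfkp (ENSMUSG00000021196) encodes the platelet isoform of phosphofructokinase, the committed step of glycolysis. Pfkp gave 2.86 and 2.02 CPM in the libraries of E12.5, 2.08 and 1.84 in those of E14, 3.22 and 3.72 in those of E15.5, 3.24 and 2.89 in those of E17, and 6.31 and 9.09 in those of P0. Both P0 libraries stood above all others, and neighbouring stages overlapped at E12.5 and E14 and at E15.5 and E17. The rise was 1.77 (SE 0.23, adjusted p = 0.000245) for P0 vs E12.5 and 1.39 (SE 0.21, adjusted p = 0.0044) for P0 vs E17 by limma-voom. The gene had between 47 and 381 counts a library. Its rise of 0.82 (SE 0.24, limma-voom adjusted p = 0.0286) for E15.5 vs E14 lost its call under DESeq2 (adjusted p = 0.0621) and without any of the 4 libraries compared (adjusted p from 0.0717 to 0.171).

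The other phosphofructokinase genes differed from each other. Pfkl, the liver isoform, went from 25.4 ± 2.95 to 15.8 ± 2.41 CPM (SD, n = 2), a log2 change of -0.72 (SE 0.14, limma-voom adjusted p = 0.00231). It was -0.20 and not called with total counts alone. Pfkm, the muscle isoform, went from 27.7 ± 1.72 to 55.4 ± 2.89 CPM, a change of 1.00 (SE 0.11, limma-voom adjusted p = 7.61e-05). Against Pfkl, the Pfkp count ratio was 2.89-fold higher from E15.5 on, a log2 difference of 1.53 with no overlap (exact permutation p = 0.00952, adjusted p = 0.0143). Against Pfkm the log2 difference was 0.37, the libraries overlapped, and the test was not passed (exact permutation p = 0.248, adjusted p = 0.248).

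Aldoa (ENSMUSG00000030695) encodes the aldolase found in most tissues, which splits fructose-1,6-bisphosphate. Aldoa gave 286 and 315 CPM in the libraries of E12.5, 291 and 265 in those of E14, 210 and 198 in those of E15.5, 200 and 211 in those of E17, and 312 and 302 in those of P0. It was lowest at E15.5 and E17, and P0 overlapped E12.5. The change was -0.45 (SE 0.10, adjusted p = 0.00743) for E15.5 vs E14, 0.58 (SE 0.10, adjusted p = 0.0059) for P0 vs E17 and 0.03 (SE 0.10, adjusted p = 0.78) for P0 vs E12.5 by limma-voom. The last was -0.038 without E12.5 replicate 1 and, with total counts alone, 0.56 and called (adjusted p = 0.000772). The call of P0 vs E17 was lost without E17 replicate 1 (adjusted p = 0.0654) and with only these stages in the fit (adjusted p = 0.11). The E15.5 call was lost with total counts alone (-0.15, adjusted p = 0.204) and without E14 replicate 1 or E15.5 replicate 2.

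Aldoc (ENSMUSG00000017390) encodes the brain aldolase. Aldoc gave 209 and 218 CPM in the libraries of E12.5, 217 and 210 in those of E14, 132 and 124 in those of E15.5, 94.3 and 102 in those of E17, and 101 and 123 in those of P0. E12.5 and E14 overlapped, every later library stood below both, and P0 overlapped E17. The fall was -0.73 (SE 0.11, adjusted p = 0.00145) for E15.5 vs E14 and -0.92 (SE 0.11, adjusted p = 0.000157) for P0 vs E12.5 by limma-voom. Summed astrocyte markers ran between 301 and 331 CPM in the E12.5 libraries, 126 and 133 in those of E15.5 and 393 and 449 in those of P0, so Aldoc was lower at P0 than at E12.5 while these stood higher. By gene, 8 of the 10 astrocyte markers were called higher in P0 vs E12.5 and 2 lower. Aldoc was left out of that list.

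The ratio of Aldoc to Aldoa counts ran between 0.692 and 0.730 in the E12.5 libraries, 0.744 and 0.792 in those of E14, 0.628 and 0.629 in those of E15.5, 0.471 and 0.482 in those of E17, and 0.324 and 0.408 in those of P0. From E15.5 on it was 1.55-fold lower, a log2 difference of -0.63 with no overlap (exact permutation p = 0.00952, adjusted p = 0.0143).

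Pgk1 (ENSMUSG00000062070) encodes phosphoglycerate kinase, the first enzyme of the pathway to make ATP. Pgk1 gave 508 and 546 CPM in the libraries of E12.5, 420 and 401 in those of E14, 265 and 258 in those of E15.5, 207 and 218 in those of E17, and 263 and 234 in those of P0. Libraries of E12.5 stood above E14 and those of E14 above all later ones, and P0 overlapped E15.5. The fall was -0.65 (SE 0.09, adjusted p = 0.00127) for E15.5 vs E14 and -1.09 (SE 0.10, adjusted p = 2.56e-05) for P0 vs E12.5 by limma-voom. The change of -0.36 for E14 vs E12.5 had an adjusted p of 0.119 in limma-voom and was called by DESeq2 (adjusted p = 0.024).

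Eno1 (ENSMUSG00000063524) encodes alpha-enolase, the general isoform of the enzyme that forms phosphoenolpyruvate. Eno1 gave 817 and 947 CPM in the libraries of E12.5, 795 and 739 in those of E14, 442 and 453 in those of E15.5, 362 and 392 in those of E17, and 420 and 421 in those of P0. The stages did not overlap, with E17 lowest. The fall was -0.78 (SE 0.10, adjusted p = 0.000768) for E15.5 vs E14 and -1.06 (SE 0.10, adjusted p = 4.17e-05) for P0 vs E12.5 by limma-voom.

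Eno2 (ENSMUSG00000004267) encodes gamma-enolase, the neuron-specific isoform. Eno2 gave 28.3 and 34.0 CPM in the libraries of E12.5, 54.2 and 53.0 in those of E14, 110 and 117 in those of E15.5, 124 and 113 in those of E17, and 324 and 234 in those of P0. Only E15.5 and E17 overlapped among neighbours. The rise was 1.08 (SE 0.16, adjusted p = 0.00133) for E15.5 vs E14, 1.21 (SE 0.16, adjusted p = 0.00251) for P0 vs E17 and 3.14 (SE 0.16, adjusted p = 1.71e-06) for P0 vs E12.5 by limma-voom. For E14 vs E12.5 the change of 0.78 had an adjusted p of 0.072 in limma-voom and of 0.00219 in DESeq2. All 8 neuron markers were called higher at P0 than at E12.5, with a median of 2.34. The part of a changing share of neurons was not tested.

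The enolase pair moved furthest apart among the members that share a step. The ratio of Eno2 to Eno1 counts ran between 0.0347 and 0.0358 in the E12.5 libraries, 0.0681 and 0.0718 in those of E14, 0.250 and 0.258 in those of E15.5, 0.289 and 0.342 in those of E17, and 0.555 and 0.771 in those of P0. From E15.5 on it was 7.52-fold higher, a log2 difference of 2.91 with no overlap (exact permutation p = 0.00952, adjusted p = 0.0143), and P0 was 18.5-fold higher than E12.5. That is an excess of 4.21 on the log2 scale.

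Pkm (ENSMUSG00000032294) encodes pyruvate kinase, whose splice forms PKM1 and PKM2 are the adult and the embryonic forms, and counts per gene cannot separate them. Pkm gave 951 and 1073 CPM in the libraries of E12.5, 942 and 812 in those of E14, 535 and 514 in those of E15.5, 401 and 415 in those of E17, and 417 and 393 in those of P0. Libraries of E12.5 stood above all of E14, those of E15.5 above E17, and P0 overlapped E17. The fall was -0.74 (SE 0.11, adjusted p = 0.00124) for E15.5 vs E14 and -1.32 (SE 0.11, adjusted p = 1.63e-05) for P0 vs E12.5 by limma-voom. In E17 vs E15.5 its change was -0.36 with an adjusted p of 0.0736.

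Ldha (ENSMUSG00000063229) encodes the lactate dehydrogenase subunit M, associated with making lactate from pyruvate. Ldha gave 1617 and 1676 CPM in the libraries of E12.5, 1507 and 1438 in those of E14, 958 and 946 in those of E15.5, 896 and 965 in those of E17, and 1208 and 1142 in those of P0. E15.5 and E17 overlapped and stood lowest, and P0 lay between them and E14. The change was -0.63 (SE 0.09, adjusted p = 0.00109) for E15.5 vs E14, 0.34 (SE 0.09, adjusted p = 0.0304) for P0 vs E17 and -0.49 (SE 0.09, adjusted p = 0.00152) for P0 vs E12.5 by limma-voom. The last turned to 0.044 with total counts alone. With only E12.5 and P0 in the fit its adjusted p was 0.0655. The call of P0 vs E17 was lost in 13 of the alternatives tried, which include leaving out any of 9 libraries.

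Ldhb (ENSMUSG00000030246) encodes subunit H, associated with using lactate. Ldhb gave 127 and 133 CPM in the libraries of E12.5, 146 and 134 in those of E14, 147 and 146 in those of E15.5, 114 and 121 in those of E17, and 108 and 117 in those of P0. E14 and E15.5 overlapped and stood highest. No step between adjacent stages and not P0 vs E12.5 (-0.21, SE 0.09, limma-voom adjusted p = 0.0886) passed the test, and only the F test called it (adjusted p = 0.0287). With total counts alone P0 vs E12.5 turned to 0.32 and was called (adjusted p = 0.0112), and E15.5 vs E14 was 0.36 and called (adjusted p = 0.0107). The ratio of Ldhb to Ldha counts peaked at E15.5, with 0.0788 and 0.0794 in the E12.5 libraries, 0.0930 and 0.0971 in those of E14, 0.153 and 0.154 in those of E15.5, 0.126 and 0.127 in those of E17, and 0.0894 and 0.103 in those of P0. From E15.5 on it was 1.42-fold higher, a log2 difference of 0.51 with overlapping libraries (exact permutation p = 0.0286, adjusted p = 0.0343). Without E15.5 the difference was 0.35 and did not pass (exact permutation adjusted p = 0.103). Leaving out any single library other than P0 replicate 1 also ended the pass, with exact permutation adjusted p from 0.0571 to 0.0857.

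**Figure D3:**
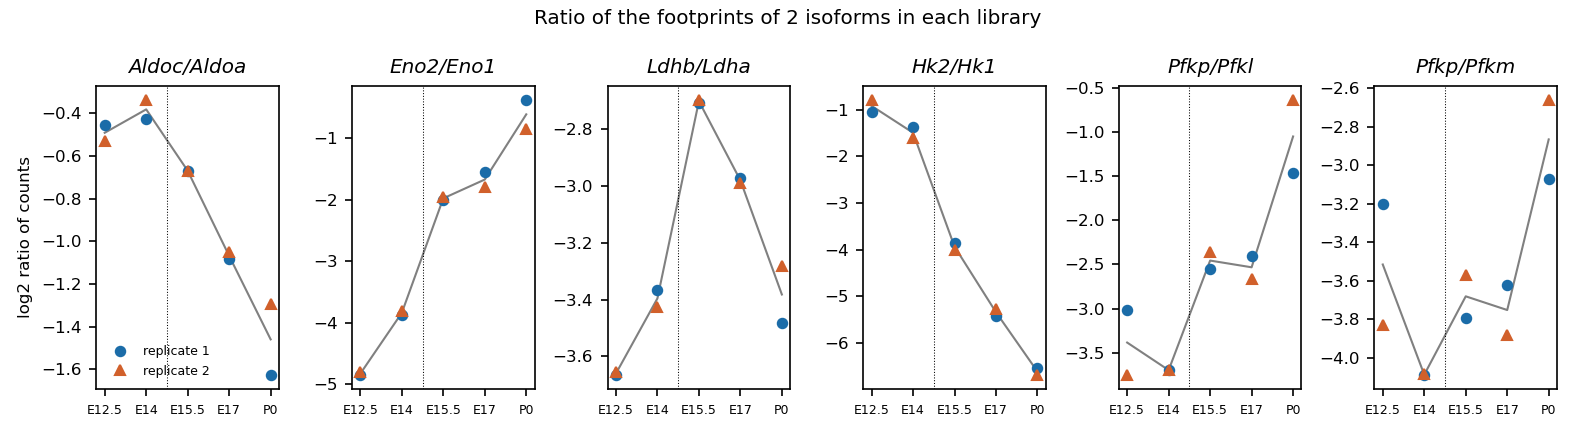
Each panel plots the log2 ratio of the counts of an isoform pair (vertical axis, a separate range per panel) at the 5 stages (horizontal axis), with a circle for replicate 1, a triangle for replicate 2, a line through the stage means and a dotted line between E14 and E15.5. Eno2/Eno1 climbs and Hk2/Hk1 falls at every step, whereas Ldhb/Ldha peaks at E15.5.

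Counts of Aldoa, Pgk1 and Eno1 are uncertain, because near-identical copies can share their reads. Eno1b, a copy of Eno1, held 0.531 to 0.560 of the Eno1 count in every library, Pgk1-rs7 held 0.518 to 0.538 of the Pgk1 count, Aldoart1 0.135 to 0.179 and Aldoart2 0.0251 to 0.0386 of the Aldoa count. Adding the copies to the gene, an alternative chosen after the data were seen, left the numbers of genes called in each comparison as they were, and moved Aldoa in P0 vs E12.5 from 0.03 to -0.0035.

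Among the 19 other glycolytic enzymes, 15 passed the filter, and in P0 vs E12.5 5 were called higher and 7 lower, with a median of -0.45. These counts and those of the lists that follow stand beside 30.1% of all genes higher and 32% lower. Gapdh, whose reaction yields NADH, went from 3553 ± 43.4 to 2404 ± 111 CPM (SD, n = 2), a change of -0.56 (SE 0.09, limma-voom adjusted p = 0.000734). Tpi1, triosephosphate isomerase, went from 452 ± 11.3 to 234 ± 31.3 CPM, a change of -0.96 (SE 0.11, limma-voom adjusted p = 8.94e-05). Gpi1, glucose-6-phosphate isomerase, changed by -0.63 and Pgam1, phosphoglycerate mutase, by -0.40. With total counts alone, Gapdh (-0.03) and Gpi1 (-0.11) lost their call and Pgam1 turned to 0.12. Pgam1 also lost its call without any of 8 libraries, under DESeq2, with another scaling of library sizes (RLE) and with a higher filter on counts. Sample quality weights, the replicate block and a fit of only these stages ended it too. Eno3, muscle enolase, changed by -2.704 (SE 0.30, limma-voom adjusted p = 9.09e-05) at 4 to 72 counts a library, and Hk3, a hexokinase of blood cells, by -1.32 on 8 to 44 counts, a call lost without P0 replicate 2, under DESeq2 and with sample quality weights. Gapdhs, the sperm form of Gapdh, was called higher on 3 to 54 counts and lost its call without E12.5 replicate 2.

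Transport genes were mixed, with 3 of 9 tested called higher and 5 lower in P0 vs E12.5 and a median of -1.14. Slc2a1, the glucose carrier of blood vessels and glia, went from 52.0 ± 2.71 to 4.85 ± 1.76 CPM (SD, n = 2), a change of -3.62 (SE 0.19, limma-voom adjusted p = 1.85e-06). In the same comparison 8 of 8 endothelial markers were called lower, with a median of -3.00. So were 9 of 9 tested red blood cell (-3.11), 8 of 8 meningeal fibroblast (-4.50) and 6 of 7 tested choroid plexus markers (-5.04). Of 8 progenitor markers 7 were lower and 1 higher (-2.50). All 8 neuron markers were higher, and of 10 astrocyte markers 8 were higher and 2 lower. The part of any of these cells in the fall of Slc2a1 was not tested. Slc16a1, a monocarboxylate carrier, changed by -2.33 (SE 0.20, limma-voom adjusted p = 2.38e-05). Slc16a3, the lactate exporter of glycolytic cells, had 95 and 197 counts at E12.5 and 0 and 19 at P0. Slc16a7, the monocarboxylate carrier of neurons, changed by 2.68 (SE 0.23, limma-voom adjusted p = 2.39e-05). Slc2a3, the glucose carrier of neurons, changed by 0.54 (SE 0.18, limma-voom adjusted p = 0.0264) and lost its call without E12.5 replicate 1 or P0 replicate 1, with sample quality weights and with only these stages in the fit. Slc2a6 was called higher by 0.90 on 8 to 38 counts and lost that call in 11 alternatives, 7 of them a left-out library.

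Of the regulators of fructose-2,6-bisphosphate, the activator of phosphofructokinase, 4 of 5 were called higher and 0 lower, with a median of 0.94. Pfkfb2 changed by 1.49 and Pfkfb3 by 1.11. Of 14 genes for pyruvate entry into mitochondria, 6 were higher and 1 lower, with a median of 0.09. Mpc1, a subunit of the pyruvate carrier, changed by 1.30 (SE 0.11, limma-voom adjusted p = 2.18e-05), and Pdk3, a kinase that inhibits pyruvate dehydrogenase, by -1.96 (SE 0.15, limma-voom adjusted p = 1.17e-05). Pdk4, of the same kinase family, rose on 1 to 55 counts and lost its call without E12.5 replicate 2. Of 7 pentose phosphate genes, 0 were higher and 3 lower, with a median of -0.55, and among them Pgd changed by -0.88 and Rpia by -1.52.

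Of 18 HIF-1 targets outside glycolysis, 16 were tested, and in P0 vs E12.5 3 were higher and 6 lower, beside 30.1% and 32% of all genes, with a median of -0.04 beside -0.01. Ndrg1, which is also high in myelinating glia, changed by 2.86 and Bnip3, a mitophagy receptor, by 0.64, while Ero1l and P4ha1, which act in protein folding and collagen synthesis, changed by -2.17 and -2.03. Hif1a itself changed by -0.46 (SE 0.16, limma-voom adjusted p = 0.0374), a call that was lost in 11 alternatives, 9 of them a left-out library, and its change turned to 0.075 with total counts alone.

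**Figure D4:**
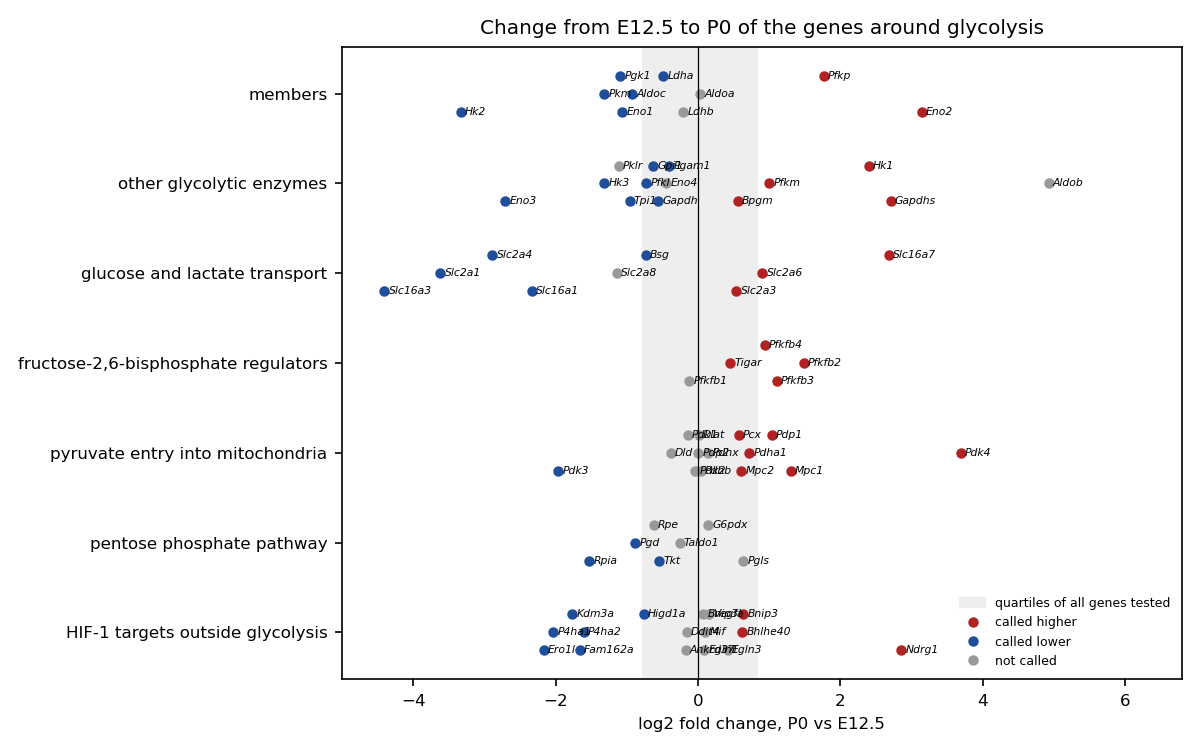
Points show the fitted log2 fold change of P0 vs E12.5 (horizontal axis) for the genes of 7 lists (rows) that were tested and are reported here, red where called higher, blue where called lower and grey where not called, with the quartiles of all genes tested (-0.78 and 0.84) shaded. Points are offset vertically only to separate the names, and Slc2a1 at -3.62 and Eno2 at 3.14 lie far outside the shaded band on either side.

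By Pearson r of log2 CPM over 10 libraries, among the 4551 other genes that averaged 500 counts or more, the genes most like Pkm were Fen1 (0.998), Ddx39 (0.996) and Cad (0.996), and those most like Hk2 were Alyref (0.997), Grb10 (0.996) and Rpa1 (0.996). For Eno2 they were Nudcd3 (0.998), Sfxn3 (0.996) and Ube2z (0.996). Eno1 and Pgk1 were most like their own copies Eno1b (0.999) and Pgk1-rs7 (1.000). The next for Pgk1 was Hbb-y (0.991), an embryonic globin and a red blood cell marker, and for Eno1 it was Arhgef40 (0.994). Within the set, Pgk1 and Eno1 were the most alike pair of this measure (0.988), and Ldhb had the lowest best match (Hk2, 0.664). The points share libraries, depth and the stage trend, so these values only describe likeness.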

How the data were processed

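Ribo-seq libraries of neocortex at 5 stages, 2 per stage, were used, and the deposited table gives whole-number counts per gene, which the authors made from footprints. Per the study's methods, nuclease digestion used RNase T1 and RNase A, monosomes were isolated, reads were trimmed and collapsed, non-coding RNA was removed with Bowtie 2, and STAR (2.7.0 in the submitters' processing notes, another version in the methods) aligned the rest to GENCODE M12 coding transcripts and the genome, with multi-matching reads kept. Gene counts are described as tximport sums, corrected for length, of DeepShape-prime estimates, and whether this whole-number table came from them is not stated. Genes with at least 32 footprints over a stage's 2 libraries in 1 stage or more were kept, 13484 of 22373, and 3004 of the 22373 had 0 counts in every library. Identifiers were matched to symbols, 22274 of 22373. Counts were scaled by TMM (edgeR 4.0.16) and fitted by limma-voom (limma 3.58.1, R 4.3.3) with a coefficient per stage over 10 libraries. Tests were two-sided, over 7 comparisons and an F test, with Benjamini-Hochberg adjustment. DESeq2 1.42.0 and edgeR's quasi-likelihood test were alternatives. Isoform ratios used counts plus 0.5 in each library and an exact permutation test. They were planned per coding length, but no length table was used here, and a constant length factor cancels in the comparison. The other alternatives were scaling, low-count filters, weights, stages in the fit, the replicate block and leaving out each library. Scripts were tested on simulated data.

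Named genes were the 10 genes, a fixed group of pathway genes, and per list the 2 largest rises and 2 largest falls from E12.5 to P0 among those called. One of these pathway genes is counted in its list but not reported here by name. The members and lists were chosen with earlier results of these data known. Promoter windows are from RefSeq (GRCm38.p6). Depth ran from 7544404 to 36129988 counts, and low counts limit the precision of low genes, beside the spread between libraries.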

Additional observations from a re-analysis of the deposited data

How the results depend on the processing

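Of the single-gene results under the alternatives, 1165 of 1271 kept direction and call, 19 gained and 80 lost a call, and 7 turned. With total counts alone, P0 vs E12.5 turned to 0.044 for Ldha, 0.32 for Ldhb, 0.12 for Pgam1 and 0.075 for Hif1a, by the shift of all genes that this scaling makes. With a library left out, Ldhb in E15.5 vs E14 ran from -0.0053 (without E14 replicate 2) to 0.13, and Aldoa in P0 vs E12.5 from -0.038 (without E12.5 replicate 1) to 0.098. With copies added the latter was -0.0035.

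Genes called in E14 vs E12.5 numbered 2 with DESeq2 and with sample quality weights, and 0 to 2 when a library was left out (2 without P0 replicate 1 or P0 replicate 2). In E17 vs E15.5 they numbered 2 with DESeq2, 3 with quality weights, 3 with only these stages, and 0 to 3 when a library was left out (0 without either library of E15.5 or E17, 3 without either of P0). In P0 vs E17 they numbered 0 with only these stages, where no gene of the table was called, and 2 to 5 when a library was left out (2 without E17 replicate 1). Other counts stayed within 1.5 times. Over all genes, the 86 calls of E14 vs E12.5 were 399 with DESeq2, 655 with weights, 143 with total counts, 154 with the higher filter, 27 without one, 11 with only these stages and 0 to 1062 with a library left out. The 1219 of E17 vs E15.5 were 3717 with weights, 3267 with only these stages, 773 without a filter and 0 to 2863 with a library left out. The 2767 of P0 vs E17 were 698 with weights and 552 to 4419 with a library left out, and the 4868 of E15.5 vs E14 fell to as few as 2739.

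The Ldhb/Ldha difference was 0.35 without E15.5 and 0.56 by medians, neither passing, and 0.44 to 0.60 when a library was left out, where it passed only without P0 replicate 1. The other ratios kept direction and call.

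Same-numbered libraries were not treated as pairs in the main fit. Deviations of replicate 1 from replicate 2 over 4559 genes correlated negatively between E12.5 and each other stage, from -0.64 (P0) to -0.11 (E17). Among the later stages they correlated from -0.04 (E14 with E17) to 0.43 (E15.5 with P0). Whether replicate numbers mark something shared between stages was not tested. With the replicate block, 9 of 10 genes passed the F test, 3 were called in P0 vs E17, and 0, 9, 1 and 8 in E14 vs E12.5, E15.5 vs E14, E17 vs E15.5 and P0 vs E12.5. The block ended the calls of Ldha in P0 vs E17, and of Pgam1 and Slc2a6 in P0 vs E12.5, and left 4 genes of the whole table called in E14 vs E12.5. Depth limits Hk2 at P0, with 14 and 61 counts, and Pfkp.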
